A study of Mus musculus with 2 samples.

Results

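The genes described here are the 6 mouse Iroquois genes (Irx1 to Irx6), both Hand genes (Hand1 and Hand2) and Lbh. All are transcription regulators, some with a part in giving the heart chambers their identity. They were chosen by name, through their GENCODE M21 symbols, and make up 9 of the 43346 Ensembl genes in the deposited tables. All 9 were present in both libraries, with between 91 and 2793 counts each. The sole group was whole heart of mouse embryos of strain B6NCrl at embryonic day 15.5, called healthy, with both sexes mixed and with no treatment, mutant allele or transgene in the labels. RNA was sequenced from 2 separate pools, 78 embryos in replicate 1 and 62 in replicate 2, with total expected counts of 41883313 and 39697992. Each library averages many whole hearts, so the spread between them is one between pools, chambers cannot be separated, and fewer cells of a type cannot be told apart from less RNA per cell. The series compares no conditions, and with 2 libraries the smallest p of an exact sign-flip test is 0.5, so no p-value is given. Levels are in TPM, the scale of transcript abundance that corrects for gene length and sequencing depth, and are given as mean ± SD (n = 2).

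Iroquois proteins carry a homeodomain of the TALE class, which has extra residues in the loop between its first helices, and the genes lie in a pair of clusters that arose by duplication. Irx4 is known for its ventricle-restricted expression, and Irx3 and Irx5 for their parts in ventricular conduction and in the gradient of repolarization across the ventricular wall. Hand1 and Hand2 are basic helix-loop-helix (bHLH) factors. Hand1 is best known from the left ventricle and Hand2 from the right ventricle and outflow tract, and Hand2 also acts in sympathetic neurons. Lbh, first described in limb bud and heart, is a small transcription cofactor.

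The labelled tissue was checked against marker genes. All 7 cardiomyocyte markers were above 1 TPM in both libraries, with summed levels of 15668 and 12942 TPM, Tnnt2 (cardiac troponin T) highest at 6881 ± 1126 TPM and Ryr2 (the cardiac ryanodine receptor) lowest at 12.1 ± 0.141 TPM. Marker lists for endocardium (4 of 4 genes), epicardium (5 of 5), mesenchyme (4 of 4) and smooth muscle (3 of 3) were also detected throughout. Markers of lung epithelium, sympathetic neurons, thymocytes and liver were higher in replicate 2, with values given beside the comparison of the libraries.

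The gene clusters had the same layout. Cluster A lies on chromosome 13 of mm10, spans 1311.7 kb and holds Irx1 (71957921 to 71963723, minus strand), Irx2 (72628820 to 72634198, plus strand) and Irx4 (73260479 to 73269608, plus strand). Cluster B lies on chromosome 8, spans 882.4 kb and holds Irx3 (91798525 to 91802067, minus strand), Irx5 (92357625 to 92376286, plus strand) and Irx6 (92674288 to 92680956, plus strand). Intervals between neighbouring genes were 665.1 and 626.3 kb in cluster A and 555.6 and 298.0 kb in cluster B. Outside the clusters, Hand1 lies on chromosome 11 (57828705 to 57832818, minus strand), Hand2 on chromosome 8 (57320983 to 57324633, plus strand) and Lbh on chromosome 17 (72918305 to 72941947, plus strand). These positions are those of GENCODE M21 on GRCm38, the same build as mm10.

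The homeobox, the coding stretch of 189 bases for the DNA-binding domain of 63 residues, shows how alike the corresponding genes of the clusters are, and whether reads could tell them apart. In each pair below, given 5′ to 3′ on the coding strand from the GENCODE M21 transcripts, capitals mark the bases at which the partner differs. Irx4 (chr13:73267520-73267708, exon 5 of 6) and Irx6 (chr8:92677233-92677421, exon 4 of 6) differed at 23 bases, 16 of them at codon position 3, and 58 of 63 residues were identical.
Irx4: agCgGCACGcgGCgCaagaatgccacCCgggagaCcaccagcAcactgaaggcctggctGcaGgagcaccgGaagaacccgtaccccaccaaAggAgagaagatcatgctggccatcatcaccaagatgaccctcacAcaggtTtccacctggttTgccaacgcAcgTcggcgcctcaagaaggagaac
Irx6: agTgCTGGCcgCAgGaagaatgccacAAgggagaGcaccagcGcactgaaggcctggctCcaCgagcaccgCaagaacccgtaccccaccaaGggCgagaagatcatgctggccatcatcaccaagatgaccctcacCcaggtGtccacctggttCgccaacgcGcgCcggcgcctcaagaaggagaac
Irx1 (chr13:71959995-71960183, exon 2 of 4) and Irx3 (chr8:91800499-91800687, exon 2 of 4), both on the minus strand, differed at 20 bases, 17 of them at codon position 3, and 62 residues were identical.
Irx1: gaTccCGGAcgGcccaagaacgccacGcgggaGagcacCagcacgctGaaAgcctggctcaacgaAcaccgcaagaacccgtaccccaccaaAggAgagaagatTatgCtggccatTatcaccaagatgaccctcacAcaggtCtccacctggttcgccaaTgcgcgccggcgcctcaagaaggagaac
Irx3: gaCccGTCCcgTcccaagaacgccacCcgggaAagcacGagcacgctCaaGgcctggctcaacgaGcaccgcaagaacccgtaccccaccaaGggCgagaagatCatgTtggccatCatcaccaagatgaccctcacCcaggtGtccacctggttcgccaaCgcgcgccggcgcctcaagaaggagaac
Irx2 (chr13:72630661-72630849, exon 2 of 5) and Irx5 (chr8:92359624-92359812, exon 2 of 3) differed at 17 bases, all at codon position 3, so that the 63 residues were the same.
Irx2: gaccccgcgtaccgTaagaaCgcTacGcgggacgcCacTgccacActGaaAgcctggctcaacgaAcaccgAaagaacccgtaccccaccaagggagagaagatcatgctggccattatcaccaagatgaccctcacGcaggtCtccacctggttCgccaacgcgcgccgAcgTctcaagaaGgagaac
Irx5: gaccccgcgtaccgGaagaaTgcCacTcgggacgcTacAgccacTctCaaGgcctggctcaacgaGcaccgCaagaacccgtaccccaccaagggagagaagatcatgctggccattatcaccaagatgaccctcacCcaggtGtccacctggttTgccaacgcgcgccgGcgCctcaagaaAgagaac

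Over the 15 possible Iroquois pairs, homeodomain identity ranged from 85.7% of residues to all of them and from 83.1% to 91.0% of bases. Irx2 and Irx5, and Irx1 and Irx3, were the most alike pairs. Irx4 and Irx6, the remaining corresponding pair, shared 58 residues, as did Irx1 and Irx6. Whole proteins were less alike, with 39.4% to 54.2% identical residues at aligned positions, and Irx2 and Irx5 were again the closest. Over the whole transcripts of each pair, the longest run of identical bases was 65 for Irx2 and Irx5 and 88 for Irx3 and Irx6. Deposited counts were whole numbers (within 0.005) for 7 of the 9 genes, Irx2, Irx5 and Irx6 among them. The counts of Irx3 and Hand2 were not whole, so some reads of these genes were shared out with other features.

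**Figure D1:**
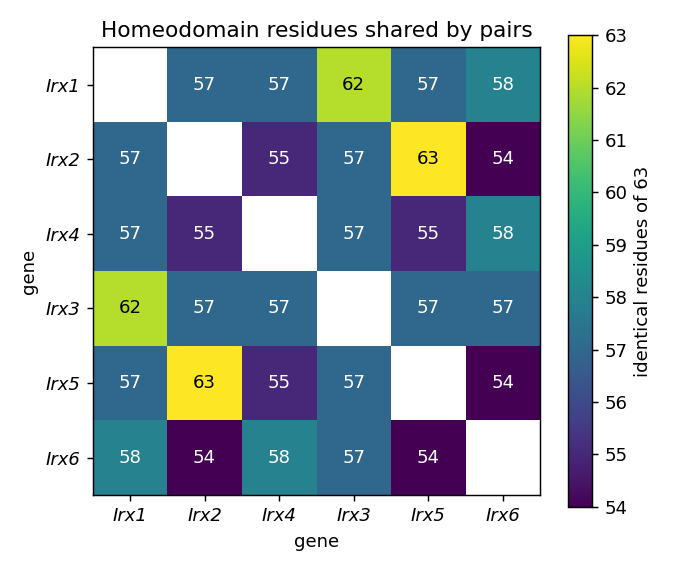
Number of identical residues among the 63 of the homeodomain for each pair of Iroquois genes, with genes in cluster order on both axes and the number in each cell. Irx2 with Irx5 (63) and Irx1 with Irx3 (62) stand above the other pairs, which share 54 to 58.

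Hand1 and Hand2 shared 123 of 209 aligned residues (58.9%). Their most alike stretch of 53 residues was chosen by likeness, not by the bounds of the bHLH domain, and may not hold all of it. This stretch lies in exon 1 of 2 in both genes (Hand1 at chr11:57831328-57831486, minus strand; Hand2 at chr8:57322222-57322380, plus strand). Within it 50 residues were identical, while 24 bases differed, and capitals mark those bases. The longest run of shared bases there was 17.
Hand1: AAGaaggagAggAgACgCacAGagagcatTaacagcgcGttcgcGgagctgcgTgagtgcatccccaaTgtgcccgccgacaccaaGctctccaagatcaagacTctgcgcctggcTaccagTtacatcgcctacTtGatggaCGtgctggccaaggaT
Hand2: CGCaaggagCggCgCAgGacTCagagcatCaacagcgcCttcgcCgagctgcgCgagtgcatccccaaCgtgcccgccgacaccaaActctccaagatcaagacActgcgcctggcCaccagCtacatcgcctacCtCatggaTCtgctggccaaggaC

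The 9 genes ranged from about 1 to 35 TPM, and Irx4 led. Irx4 (ENSMUSG00000021604) stood at 36.7 TPM in replicate 1 and 33.2 TPM in replicate 2 (34.9 ± 2.49 TPM), from 2793 and 2256 counts. That level was at percentile 83.3 of the 21474 protein-coding genes. Lbh (ENSMUSG00000024063) followed at 24.0 and 19.1 TPM (21.6 ± 3.48 TPM), at percentile 75.9. Both were lower in replicate 2, and the ranges of the 2 genes did not overlap: Irx4 was 1.53 times Lbh in replicate 1 (95% interval 1.45 to 1.61) and 1.74 times in replicate 2 (1.63 to 1.85). These intervals are exact, come from the counts of the 2 genes and cover counting error only.

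Irx3 (ENSMUSG00000031734) was the highest gene of cluster B, at 12.2 and 14.9 TPM (13.6 ± 1.97 TPM, percentile 68.4). It stood below Lbh in both libraries, by 1.98-fold in replicate 1 and by 1.28-fold in replicate 2. Hand1 (ENSMUSG00000037335) was at 9.48 and 11.4 TPM (10.5 ± 1.39 TPM, percentile 64.2), below Irx3 by 1.28-fold and 1.31-fold. Both had the higher TPM in replicate 2, and their order was the same in each library.

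The next genes could not be ordered in gene TPM. Hand2 (ENSMUSG00000038193) stood at 10.1 and 7.53 TPM (8.83 ± 1.84 TPM, percentile 61.6), and Irx2 (ENSMUSG00000001504) at 7.48 and 9.70 TPM (8.59 ± 1.57 TPM, percentile 61.1). The ranges of Hand1 and Hand2 overlapped, as did those of Hand2 and Irx2, and Hand2 changed places with both between the libraries. For Irx2 this depended on how the gene was summed. In expected counts, with no length normalization, Hand2 had 703 and 466 and Irx2 463 and 456. The full-length transcript Irx2-201 alone had 5.0 and 5.21 TPM, below Hand2 in both libraries. Hand1 was 0.935 times Hand2 in replicate 1 (95% interval 0.834 to 1.047) and 1.52 times in replicate 2 (1.34 to 1.72). Their order in replicate 1 thus lay within counting error. Irx5 (ENSMUSG00000031737), at 6.52 and 7.17 TPM (6.84 ± 0.460 TPM, percentile 57.8), was below Irx2 in each library. That step was small, 1.15-fold in replicate 1 (95% interval 1.01 to 1.30) and 1.35-fold in replicate 2 (1.19 to 1.54).

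A larger step separated the last Iroquois genes. Irx1 (ENSMUSG00000060969) stood at 1.33 and 1.41 TPM (1.37 ± 0.057 TPM, percentile 41.8), 4.92-fold and 5.08-fold below Irx5. Irx6 (ENSMUSG00000031738) was lowest at 0.880 and 1.08 TPM (0.980 ± 0.141 TPM, percentile 39.5). Irx1 was 1.502-fold above Irx6 in replicate 1 (95% interval 1.12 to 2.02) and 1.31-fold in replicate 2 (0.974 to 1.75), so their order held beyond counting error in replicate 1 alone. At a limit of 1 TPM in both libraries, 8 of the 9 genes were detected. Irx6 missed it in replicate 1 with 91 counts.

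**Figure D2:**
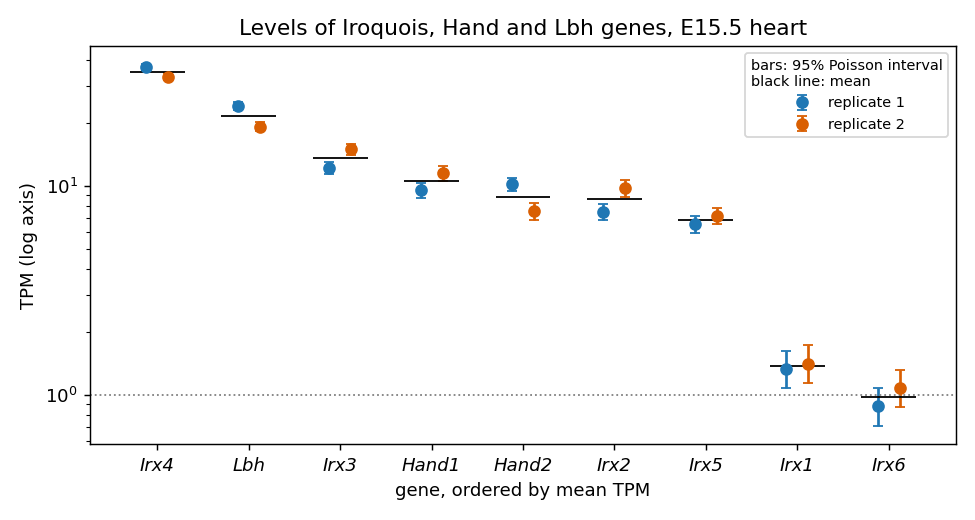
TPM (log axis) of the 9 genes in replicate 1 and replicate 2, ordered by mean TPM; vertical bars are exact 95% Poisson intervals of the counts, short black lines the mean, and the dotted line 1 TPM. Irx4 is highest in both libraries, Hand1, Hand2 and Irx2 overlap in range, and Irx1 and Irx6 lie near 1 TPM.

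Cluster A exceeded cluster B, and most of cluster A was Irx4. The summed level of cluster A was 45.5 and 44.3 TPM and that of cluster B 19.6 and 23.2 TPM in replicates 1 and 2. Cluster A was thus 2.33-fold and 1.91-fold above cluster B, a log2 ratio of 1.08 ± 0.20. Irx4 alone made up 56.4% and 49.2% of all Iroquois TPM, Irx3 18.7% and 22.1%, Irx2 11.5% and 14.4%, Irx5 10.0% and 10.6%, Irx1 2.04% and 2.09%, and Irx6 1.35% and 1.60%. Without Irx4, an alternative chosen after the values were seen, cluster A came to 8.81 and 11.1 TPM and lay below cluster B, with a log2 ratio of -1.11 ± 0.06. The direction of the comparison of clusters rested on that gene.

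At corresponding positions the clusters differed in opposite directions. At the first position, Irx3 of cluster B exceeded Irx1 of cluster A by 8.57-fold and 9.96-fold (log2 of Irx1 over Irx3 -3.21 ± 0.15, with 0.1 TPM added to each gene). At the last position, Irx4 of cluster A exceeded Irx6 of cluster B by 37.5-fold and 28.2-fold (log2 5.02 ± 0.29). Both differences were many times the spread between the libraries and had the same direction in each.

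The middle pair, Irx2 and Irx5, whose homeodomains are the same in residues, was the closest in level. Irx2 exceeded Irx5 by 1.15-fold and 1.35-fold (log2 0.31 ± 0.17). The call depended on how Irx2 was summed. In expected counts, with no length normalization, Irx2 had 463 and 456 and Irx5 488 and 479, a log2 ratio of -0.07. With protein-coding transcripts of at least 1000 bases alone, an alternative chosen after the values were seen, the ratio was -0.42. The direction of this pair thus differed between ways of counting the gene.

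**Figure D3:**
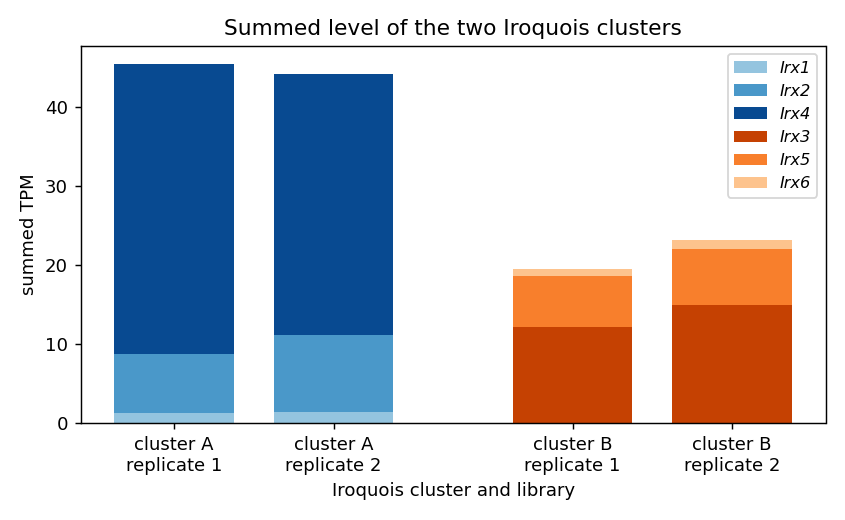
Summed TPM of Iroquois cluster A (Irx1, Irx2, Irx4) and cluster B (Irx3, Irx5, Irx6) in each library, stacked by gene. Irx4 fills most of the cluster A bars, and Irx3 most of the cluster B bars; cluster A totals 45.5 and 44.3 TPM, cluster B 19.6 and 23.2 TPM.

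The transcripts behind these levels differed in how well they were resolved. Irx1, Irx5 and Hand2 each had a single transcript in the tables used. Irx3-202 held 98.5% and 98.7% of the TPM of Irx3, and Lbh-201 held all of Lbh in replicate 1 and 97.7% in replicate 2, both protein-coding. Irx6 was divided between Irx6-201 (81.8% and 74.7%) and Irx6-202 (18.2% and 25.4%), and Hand1 between Hand1-201 (62.3% and 64.0%) and Hand1-203 (37.8% and 36.0%), with Hand1-202 listed at 0. These transcripts of Irx6 and Hand1 are all annotated as protein-coding.

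Irx4 and Irx2 carry more uncertain transcripts. Most Irx4 was given to Irx4-202, which has the lowest support level in GENCODE M21 (level 5), with 26.1 and 23.4 TPM or 71.1% and 70.5% of the gene. The well supported Irx4-201 (level 1) had 10.6 and 9.77 TPM. Both are protein-coding and the shares were nearly equal in the libraries. For Irx2, the full-length Irx2-201 had 5.0 and 5.21 TPM, a retained intron form of 927 bases had 1.35 and 1.40 TPM, and Irx2-205, a protein-coding model of 559 bases, had 1.13 and 2.91 TPM. The deposited interval of Irx2-205 ran from 0.000413 to 2.45 TPM in replicate 1 and from 1.31 to 4.52 TPM in replicate 2. The deposited effective length of Irx2, which weighs its transcripts, was 1907 bases in replicate 1 and 1621 in replicate 2, and the TPM of the gene was higher in replicate 2 although its counts were 463 and 456.

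Several genes had a noncoding neighbour on the opposite strand, and for Hand2 and Irx5 it was the more abundant in TPM. Hand2os1, the noncoding RNA divergent from Hand2 and also called Upperhand, is annotated at chromosome 8, 57281117 to 57324233, minus strand, bounds that overlap Hand2. It stood at 164 and 132 TPM (148 ± 22.8 TPM), 16.2-fold and 17.5-fold above Hand2. It had 2932 and 2097 counts, against 703 and 466 for Hand2. Its 8 transcripts in the tables are 486 to 877 bases long, and the highest, Hand2os1-206, had 37.9 and 31.8 TPM. On the scale of counts explained below, its log2 ratio of replicate 2 to replicate 1 was -0.56 (95% interval -0.64 to -0.48), within 1.5-fold, and that of Hand2 was -0.67.

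The start sites of Hand2 (57320983) and Hand2os1 (57320859) in RefSeq are separated by 123 bases, shown here because both genes start from this interval in opposite directions. It is chr8:57320860-57320982, plus strand, GRCm38.p6. Capitals mark CpG dinucleotides, of which it holds 13, at a GC content of 56.1%.
Hand2 and Hand2os1: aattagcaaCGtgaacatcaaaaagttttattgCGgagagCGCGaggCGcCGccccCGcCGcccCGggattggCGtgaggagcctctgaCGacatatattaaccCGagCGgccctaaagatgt
RefSeq start windows, 250 bases before to 50 after the start site, were matched for 5 of the 9 genes (Hand2, Irx2, Irx3, Irx4 and Lbh). CpG counts were 31 for Irx4, 25 for Irx2 and for Lbh, 17 for Hand2 and 14 for Irx3, against a median of 7 over 32851 windows. Their GC content ran from 50.3% for Hand2 to 70.7% for Irx4, against a median of 52.7%.

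Motifs were searched by letters on both strands of those windows. GATAA, the core bound by GATA factors, was found in 2 places at Hand2 and in none of the other 4 windows, and 25.4% of all windows hold it. CANNTG, the E-box that bHLH factors bind, was found in 2 places at Hand2 and 1 each at Irx2 and Irx4 (72.3% of all windows). TATAAA was found once, at Lbh (13.6%). TCACAC, a part of the T-box element, was found once, at Irx2 (14.5%), and NAAGTG, the core bound by Nkx2-5, once each at Hand2, Irx2 and Irx3 (46.3%). A palindromic form of the MEF2 site was in none of the 5 (3.7%). NAAGTG and CANNTG can overlap. A match in letters is a description and not a bound site.

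At the other genes the balance of strands varied. Crnde, a noncoding RNA whose annotated start lies 1505 bases from that of Irx5 on the opposite strand, stood at 28.1 and 25.3 TPM, 4.31-fold and 3.52-fold above Irx5. In counts they were closer, with 589 and 494 for Crnde against 488 and 479 for Irx5. The effective length of Crnde was 645 and 674 bases, against 2304 for Irx5. Irx3os, which overlaps Irx3 on the opposite strand, was low at 0.740 and 1.04 TPM, with Irx3 16.4-fold and 14.4-fold above it. Beside Irx2, Gm20554 on the opposite strand had 1 and 5 counts. The antisense gene at Irx6, Gm45505, has no values in these data. The use of strand in the counting is not stated in these sources. The fractional counts of Irx3 and Irx3os summed to whole numbers, 1035 in replicate 1 and 1142 in replicate 2, so the split of reads between this pair is an estimate. Hand2os1 had whole counts, so the fractional counts of Hand2 were not shared with it. In GENCODE M21 the 8 transcripts of Hand2os1 in the tables end by base 57320830, before the start of Hand2.

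**Figure D4:**
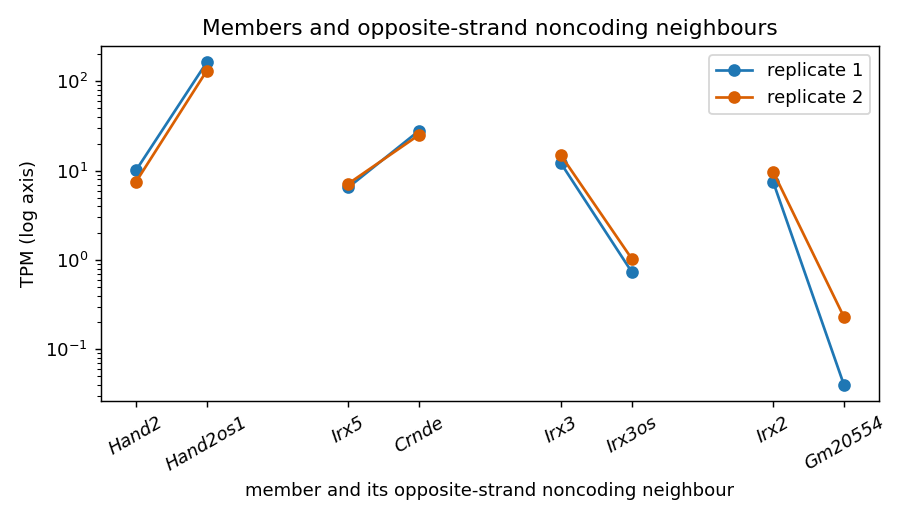
TPM (log axis) in each library of 4 genes and their noncoding neighbours on the opposite strand; lines join a gene to its neighbour within a library. Hand2os1 and Crnde lie above Hand2 and Irx5, and Irx3os and Gm20554 lie below Irx3 and Irx2, in both libraries.

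Of the 32 annotated genes within 100 kb of the 9, 19 were in the tables, and 10 of them reached 1 TPM in both libraries. Besides Hand2os1 and Crnde, these were, near Irx4, Ndufs6 (a complex I subunit, 576 ± 75.0 TPM) and Mrpl36 (a mitochondrial ribosomal protein, 105 ± 14.2 TPM), both higher than any of the 9 genes. Beside Hand1 lay Galnt10 (9.05 ± 2.42 TPM), Sap30l (7.78 ± 0.601 TPM) and the noncoding 2010001A14Rik (3.94 ± 0.262 TPM), none with a mean above that of Hand1. The rest were 5033428I22Rik beside Hand2 (3.91 ± 0.481 TPM), Ypel5 beside Lbh (42.5 ± 2.23 TPM) and the pseudogene Gm3272 beside Irx6 (1.88 ± 0.177 TPM). The pseudogene Gm10263 beside Irx4 reached that level in replicate 2 alone (0.980 and 1.95 TPM).

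The libraries were compared on expected counts, scaled by edgeR's TMM factor, as the log2 ratio of replicate 2 to replicate 1. Of 17054 genes with at least 10 counts in both, 16.0% were 1.5-fold or more apart, 1915 higher in replicate 2 and 812 lower. Among the 9 genes, 2 were that far apart, Hand2 and Lbh, both higher in replicate 1, a share near that of all genes at this minimum of counts. At a minimum of 100 counts they were 2 of the 7 genes tested, against 6.79% of all genes. Hand2 was 1.59-fold higher in replicate 1, with a log2 ratio of -0.67 (95% interval -0.84 to -0.49). Lbh was 1.51-fold higher, with a log2 ratio of -0.60 (-0.69 to -0.50). Both intervals reach past the 1.5-fold limit of 0.585 on the log2 scale, so counting error alone does not place either gene beyond it, and 12.9% and 15.5% of all genes were at least as far apart as Hand2 and Lbh.

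The other 7 genes were closer. Irx4 followed with -0.38 (-0.46 to -0.30). The remaining 6, Irx1, Irx2, Irx3, Irx5, Irx6 and Hand1, lay between -0.15 and 0.06, and the interval of each included 0. Their distance was below the median of all genes, which was 0.222 in absolute log2 ratio. Over the 9 genes the median log2 ratio was -0.10, against -0.02 for all genes. On TPM the picture shifts for genes in general. Of the 20.1% of all genes 1.5-fold or more apart in TPM, 3071 were higher in replicate 2 and 351 lower. Among the 9 genes, 6 had the higher TPM in replicate 2, and none was 1.5-fold apart. Scaling by total gene counts moves every log2 ratio up by 0.17, to -0.49 for Hand2 and -0.42 for Lbh, and none of the 9 was then 1.5-fold apart (17.8% of all genes, 2625 higher in replicate 2 and 403 lower). Scaling by spike-in counts moves every ratio down by 0.83, and all 9 were then lower in replicate 2 by 1.5-fold or more, as were most of the 79.9% of genes past that limit (13076 lower, 552 higher).

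**Figure D5:**
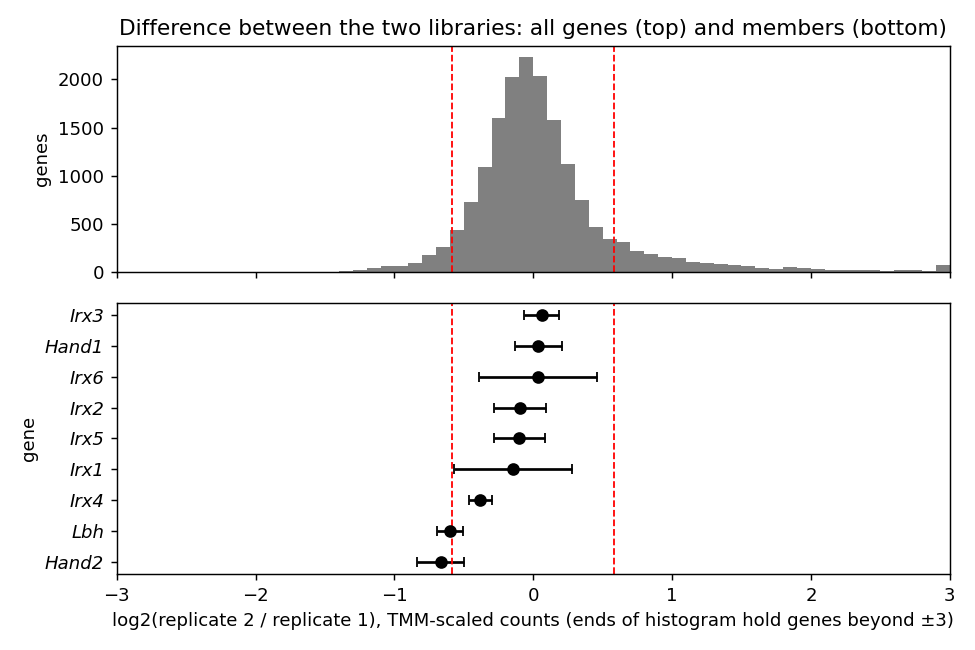
Log2 ratio of replicate 2 to replicate 1 (TMM-scaled counts) for all 17054 genes as a histogram (number of genes, top) and for the 9 genes with exact 95% intervals (bottom); dashed lines mark 1.5-fold. Hand2 and Lbh lie just beyond the lower line, Irx4 inside it, and the other 6 close to 0.

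The median log2 ratios of 4 marker lists of other tissues were larger than the ratio of any of the 9 genes. On the same scale, 7 of 8 lung epithelium markers with enough counts (Sftpc, Sftpb, Nkx2-1, Cdh1, Epcam, Foxa2 and Cldn18) were 1.5-fold or more higher in replicate 2, with a median log2 ratio of 1.37 and summed levels of 138 and 348 TPM. Irx1, Irx2, Irx3 and Irx5, which are also known from embryonic lung, lay between -0.15 and 0.06. All 7 sympathetic neuron markers (Th, Dbh, Phox2a, Stmn2, Tubb3, Elavl4 and Chga) were higher in replicate 2, with a median of 3.14 and sums of 11.3 and 69.5 TPM, while Hand2, known from these neurons, was lower there. All 6 thymocyte markers with enough counts (Rag1, Rag2, Ptcra, Cd3e, Cd3g and Lck; median 3.25, sums of 16.1 and 167 TPM) and all 6 liver markers (Alb, Afp, Apoa1, Trf, Ttr and Fgb; median 2.67, sums of 44.6 and 205 TPM) were higher in replicate 2 too. The part of these tissues in the levels of the 9 genes was not tested.

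Of 7 cardiomyocyte markers, with a median log2 ratio of -0.43, 2 were 1.5-fold or more apart: Tnni3 (cardiac troponin I) and Pln (phospholamban) were 1.55-fold and 1.73-fold higher in replicate 1, the library in which Hand2 and Lbh were higher. None of the 4 endocardium markers (median -0.02, sums of 94.4 and 119 TPM), 5 epicardium markers (median 0.15, 83.0 and 101 TPM) or 4 mesenchyme markers (median 0.13, 1942 and 2400 TPM) was 1.5-fold apart. Of 3 smooth muscle markers (median 0.24, 139 and 167 TPM), Myh11 was 2.36-fold higher in replicate 2. Of 3 skeletal muscle precursor markers, with sums of 0.910 and 1.89 TPM, Pax7 was at 0 in both and Myog, the only one with enough counts, was 1.70-fold higher in replicate 2.

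Within the TALE homeobox class, Irx4 ranked second of 18 genes. Meis1, a DNA-binding cofactor of Hox and Pbx proteins, was highest at 49.5 ± 9.09 TPM, and Tgif2, a repressor in TGF-beta signalling, followed Irx4 at 23.8 ± 6.05 TPM. By mean TPM, Irx3 was the ninth, Irx2 the eleventh and Irx5 the twelfth. Irx1 and Irx6 stood last but for Mkx, a regulator of tendon, at 0.460 ± 0.240 TPM. Iroquois genes held 28.2% and 24.6% of the TPM of the class. Of the 12 genes outside Iroquois, 11 were detected, with a median log2 ratio of 0.20 between the libraries, and Pbx4 (1.56-fold) and Mkx (1.87-fold) were higher in replicate 2.

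Among 12 bHLH genes of the Twist and Hand type, Hand1 and Hand2 had the third and the fourth highest mean TPM. Their order differed between the libraries, though within counting error in replicate 1. In replicate 2 Hand2 (7.53 TPM) was close to Msc (7.31 TPM), a regulator in muscle precursors. Tcf21, a regulator in epicardium and fibroblasts, was highest at 48.6 ± 0.962 TPM, followed by Tcf15 at 11.7 ± 0.049 TPM, so Hand1 (10.5 ± 1.39 TPM) lay within its own spread of Tcf15. Both Hand genes together held 20.9% and 18.9% of the TPM of these genes. Of the other 10, 6 were detected, Ptf1a and Ferd3l were at 0, and Msc was 1.96-fold higher in replicate 2. The median log2 ratio was -0.20 over the 7 with enough counts.

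The E proteins, which pair with Hand factors, and the Id proteins, which bind E proteins and block DNA binding, were all detected (7 of 7). On scaled counts none was 1.5-fold apart (median log2 ratio -0.08), and Tcf3 was 1.37-fold higher in replicate 2. Tcf4 had 64.1 and 71.4 TPM, Tcf3 34.5 and 55.5 TPM and Tcf12 23.9 and 27.7 TPM, each above both Hand genes. Id3 was highest at 229 ± 18.1 TPM and Id4 lowest at 5.56 ± 1.61 TPM.

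Lists of chamber genes gave the setting of these levels, though the chambers were not separated. The lists overlap. Cited1 and Gja5 are among both the left ventricle and the trabecular genes, and Gja5 is also among those of repolarization and conduction. All 3 left ventricle genes were detected, from Tbx5 (22.3 ± 2.28 TPM) to Cited1 (324 ± 2.02 TPM), with none 1.5-fold apart and a median log2 ratio of -0.03, and Hand1 had 0.04. Of 6 right ventricle and outflow genes (median 0.41), 5 were detected. Tbx20 was highest at 57.6 ± 5.90 TPM, and Fgf10, a growth factor of the second heart field, was lowest at 0.770 and 1.69 TPM. Isl1, which marks that field and also sympathetic neurons, had 1.75 and 6.96 TPM, 3.02-fold higher in replicate 2 on scaled counts, and Fgf10 was 1.87-fold higher. Wnt11 and Sema3c were 1.49-fold and 1.18-fold higher in replicate 2 too. Rspo3, a Wnt agonist, was 1.60-fold higher in replicate 1, and Tbx20 was 1.37-fold higher there. Most of this list thus went the other way from Hand2, which was 1.59-fold higher in replicate 1.

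Of 5 ventricular and compact wall genes, all detected (median -0.49), 1 was 1.5-fold or more apart. Myl2, the ventricular regulatory light chain, had 8245 and 6057 TPM and was 1.61-fold higher in replicate 1, and Mycn was lowest at 28.1 ± 0.622 TPM. Trabecular genes (5 of 5, median 0.13) ran from Bmp10 (3.63 ± 0.948 TPM) to Nppa (3801 ± 832 TPM), and Nppb, the B-type natriuretic peptide, was 1.55-fold higher in replicate 1. Atrial genes (6 of 6, median -0.13) ran from Nr2f1 (3.10 ± 0.827 TPM) to Myl7 (3183 ± 378 TPM), with none 1.5-fold apart.

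Of 6 genes of repolarization and conduction, the processes for which Irx3 and Irx5 are known, 5 were detected (median 0.12). Gja1, which encodes connexin 43, had 368 and 287 TPM and was 1.51-fold higher in replicate 1, and Kcnip2, a subunit of the transient outward potassium channel, had 8.26 and 5.62 TPM and was 1.65-fold higher. Kcnd2, which encodes a pore subunit of that channel and is known to be repressed by Irx5, had 1.27 and 1.63 TPM, below Irx5 in both libraries. Kcnd3 was lowest at 0.37 and 0.60 TPM. Gja5, which encodes connexin 40 of the fast-conducting myocardium, had 64.8 and 84.1 TPM, and Irx3 had 12.2 and 14.9 TPM. On scaled counts the log2 ratio of replicate 2 to replicate 1 was small for both, 0.13 for Gja5 and 0.06 for Irx3. The interval of Irx3 ran from -0.06 to 0.19. Of all genes 1.5-fold or more apart in TPM, 3071 were higher in replicate 2 and 351 lower. The higher TPM of both genes in replicate 2 is therefore not particular to them. With 2 libraries of 1 group, likeness of pattern between genes cannot be measured, and these values stand side by side only.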

How the data were processed

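RNA-seq of 2 libraries of 1 group was used, 10 ng of RNA over 200 nt each, with spike-ins, per the labels. Per the file headers, quantification of genes and transcripts used mm10 and GENCODE M4; aligner and quantifier: not given in the sources used here. Labels say total RNA and link the manual of an oligo(dT)-primed kit, so the selection of RNA is unsure. Deposited expected counts are estimated reads per feature, not normalized. Deposited TPM are these counts per effective length, scaled to a fixed sum. The authors' deposited posterior mean TPM served as an alternative. The interval bounds beside each transcript's TPM, a signal scale, and the percent that each transcript holds of its gene are the authors' deposited values.

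Names and positions came from GENCODE M21 (42462 of 43346 genes matched; 26248 short features with numeric identifiers and 97 spike-ins were left out). One listed marker is not reported here and was left out of its list. Gene counts were 41221435 and 38457396. The 9 genes and all lists were chosen with earlier results of these data known. From each list the text names the highest and lowest gene by TPM, those 1.5-fold or more apart between the libraries, and those a sentence on the 9 genes needs, and, of neighbours within 100 kb, those at 1 TPM or more in either library and those antisense. Ratios between genes used TPM + 0.1, except sums and ratios to neighbours, which used TPM alone. The steps in the order of levels used rounded counts per effective length. Ratios between libraries used rounded expected counts, at least 10 in both, scaled by TMM (edgeR 4.0.16, R 4.3.3), with DESeq2 1.42.0 size factors as an alternative. Intervals are exact at 95% (Poisson, or binomial for ratios, scipy 1.17.1) and cover counting error only, as reads are not independent molecules; they were checked on simulated data. Proteins were translated from GENCODE M21 coding sequences in place of the planned RefSeq proteins and aligned globally. The homeobox was located by its conserved last helix, and the Hand stretch as the most alike 53 residues. Start windows and start sites are from RefSeq (GRCm38.p6). CpG was chosen for marking after the Hand2 sequence was seen. Transcript versions in the files often differ from M21, so bounds may not be those counted. Leaving out each library in turn, pseudocounts, length normalization, transcript sets, scalings and thresholds were tried as alternatives.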

Additional observations from a re-analysis of the deposited data

How the results depend on the processing

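No paired analysis was possible because there is 1 group. With 2 pools, an SD is imprecise and depth limits mainly Irx1 and Irx6, each with fewer than 100 counts per library. Posterior mean TPM left 15 of 15 values within 1 SD, and a pseudocount of 0.01 TPM left 6 of 6. Leaving out each library gave a log2 of cluster A over cluster B of 0.933 to 1.218, of Irx1 over Irx3 of -3.316 to -3.100, of Irx2 over Irx5 of 0.195 to 0.431, of Irx4 over Irx6 of 4.817 to 5.230 and of Hand2 over Hand1 of -0.597 to 0.095, the only one of the 5 whose sign differed between the libraries. Genes detected numbered 8 without replicate 2, 9 without replicate 1, 9 at 0.5 TPM and 7 at 5 TPM. In values that moved by more than 1 SD, a pseudocount of 1 TPM gave -2.612 for Irx1 over Irx3 and 4.182 for Irx4 over Irx6, nearer 0, as a larger pseudocount does by construction. Expected counts with no length normalization gave -3.434 for Irx1 over Irx3, 4.731 for Irx4 over Irx6 and -0.073 for Irx2 over Irx5, and 0.019 for Hand2 over Hand1, which is within 1 SD. Protein-coding transcripts gave 0.045 for Irx2 over Irx5, and those of at least 1000 bases, a choice made after seeing the data, -0.415, as the short Irx2 forms are then left out. Cluster A over cluster B without Irx4, also chosen after seeing the data, was -1.106. The number of the 9 genes 1.5-fold apart between the libraries was 2 with TMM and with DESeq2 size factors (16.0% of all genes in both), 2 at a minimum of 1 count (27.0% of all genes) and 2 at 100 counts (6.79%, with 7 of the 9 tested). It was 0 scaled by total gene counts, 9 scaled by spike-ins, 0 at 2-fold (6.78% of all genes) and 0 as a ratio of TPM (20.1% of all genes, 3071 higher in replicate 2 and 351 lower); the cause of these differences beyond the shifts of scale was not tested.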
